A study of Rattus norvegicus with 4 samples.

Results

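The receptors of the epidermal growth factor (EGF) family and their ligands were followed in the muscle layer of the uterus, the myometrium, of ovariectomized rats. The genes were chosen by symbol: the receptors Egfr, Erbb2 and Erbb3, and the ligands Egf, Tgfa, Areg, Hbegf, Btc and Nrg1. Every probe set whose only gene symbol in the platform annotation was one of these 9 was taken, which gave 17 probe sets for 8 genes, of 4736 genes and 8740 probe sets compared. Btc was named by no probe set under this rule. All animals were 60 days old and had lost their ovaries a week before the injection, so the controls lacked ovarian hormones too. The 4 groups were estradiol benzoate at 24 h, its vehicle (control) at 24 h, estradiol benzoate at 6 h and control at 6 h. The dose was 10 µg per kg under the skin, and the labels name no strain. Each group was 1 pool of 6 animals on 1 RG_U34A oligonucleotide array, so no value has a replicate error.

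EGF family receptors are tyrosine kinases that pair up when a ligand binds outside the cell and then switch on the Ras, MAP kinase and PI3 kinase cascades. EGF, transforming growth factor alpha, amphiregulin, heparin-binding EGF and betacellulin bind Egfr, and neuregulins bind Erbb3 and Erbb4. Erbb2 has no known ligand and acts as a partner of the others. The ligands are made as membrane proteins and cut free by proteases. In the rodent uterus estrogen is known to raise EGF receptors and several of these ligands, and they are studied there as mediators of estrogen-driven growth.

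At 6 h the labels of the arrays did not match well-known estrogen targets. Estrogen is known to switch on Igf1, Pgr, S100g and Hsd11b2 in the uterus of rats. Each was at least 2-fold higher with estradiol at 24 h and at least 2-fold lower under the estradiol label at 6 h. As an example, Igf1 read 5182 with estradiol and 665 in the 24 h control, and 704 under the estradiol label and 7872 under the control label at 6 h. Directions at 6 h are therefore given for the arrays as labelled. The 24 h arrays share 1 scan day and the 6 h arrays share another, so a difference between times cannot be told apart from one between scan days. The wash record of the 24 h control array ended in a communication error. Median signals lay between 144 and 169. All 10 smooth muscle markers on the array, such as Acta2 and Myh11, were above the floor on every array, with summed signals of 117248 with estradiol and 107966 in the 24 h control, and of 81713 under the estradiol label and 96762 under the control label at 6 h.

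Most probe sets of the EGF family were dim. A floor was set at each array's 40th percentile of signal, between 89.5 and 108 units, and a signal at or under it was taken as not measured. Of the 17 probe sets 6 were above the floor on at least 1 array, that is 35.3%, against 70.4% of all 8740 probe sets. Since 7 of the 17 are for Nrg1 alone, this share is not one of genes. By gene the gap was smaller, with 5 of 8 members measured beside 3619 of all 4736 genes. These 6 belonged to 5 genes, Egfr, Erbb2, Erbb3, Hbegf and Nrg1, and 2 of them, for Erbb3 and Nrg1, were above the floor on all 4 arrays. The other 11 probe sets, among them all those of Egf, Tgfa and Areg, had signals between 10.1 and 91.8 and were at the floor on every array. A pair of arrays counted as different from 2-fold upward, provided that one of them exceeded its floor. If the other array lay at its floor, the smallest fold possible is given, with the words at least.

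**Figure D1:**
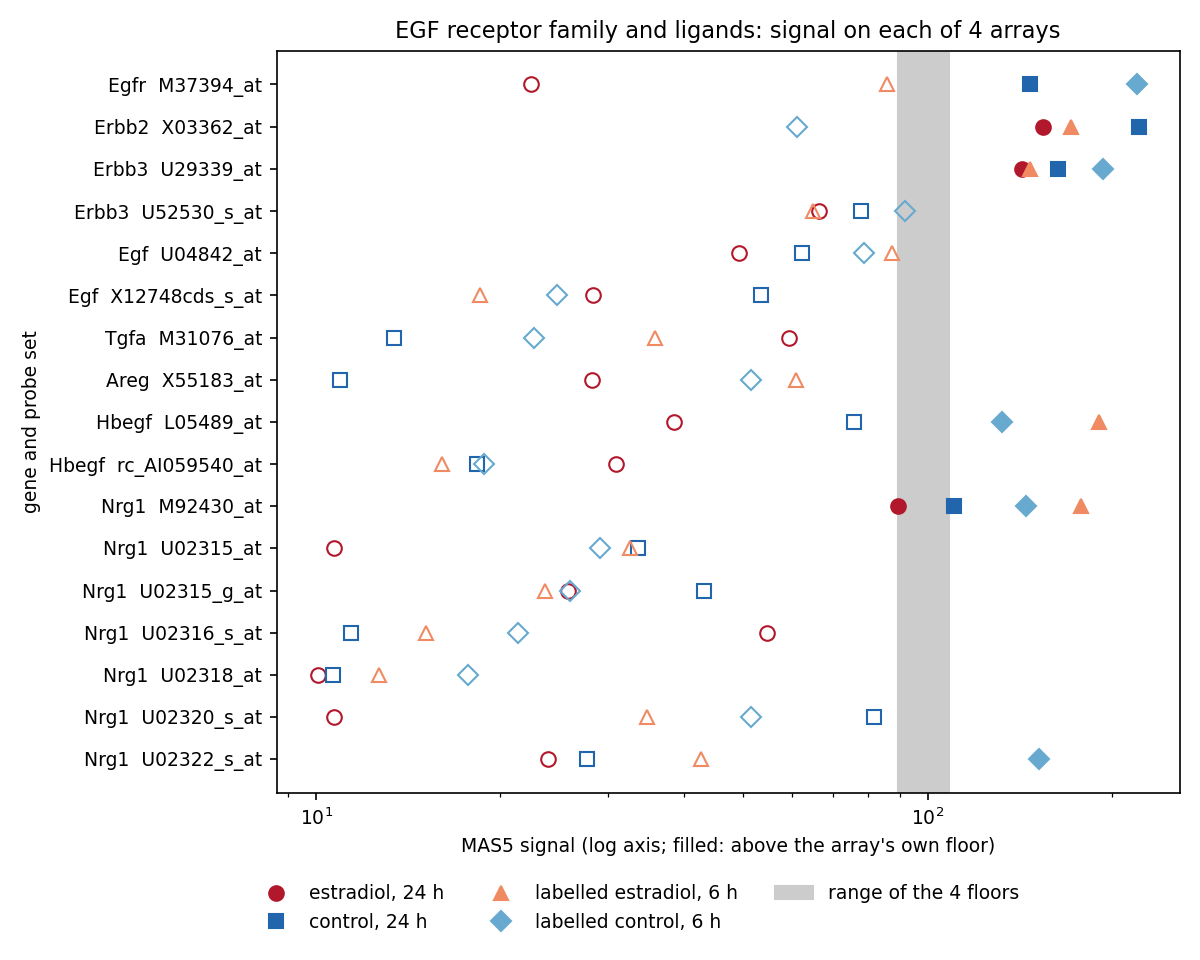
Signal of each of the 17 probe sets on the 4 arrays, on a log axis, with filled symbols above the array's own floor and open symbols at or below it; the grey band spans the 4 floors. Egfr is filled on both control arrays only, Erbb2 on all but the array labelled control at 6 h, and 11 rows are open throughout. Positions are compared along a row, not between rows, because probe sets differ in brightness for the same amount of RNA.

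Egfr, the receptor that gives the family its name, was above the floor on both arrays labelled control and on neither array labelled estradiol. Its probe set M37394_at read 22.5 with estradiol and 147 in the 24 h control. At 6 h it read 85.7 under the estradiol label and 220.4 under the control label. The highest array was thus control at 6 h, followed by control at 24 h. The 2 arrays labelled estradiol were both at the floor and are not ranked. This was not the pattern of Igf1, whose high arrays were estradiol at 24 h and the one labelled control at 6 h. Egfr was at least 1.64-fold lower with estradiol at 24 h, under the 2-fold rule, and at least 2.15-fold lower on the array labelled estradiol at 6 h, past it. Lowering the floor to the 20th percentile gave Egfr a log2 difference of -2.51 at 24 h, against -0.71 with the main floor. The 6 h difference was under 2-fold with a pseudocount of 50, at -0.99, and against the mean of both controls, at -0.81. Between the controls Egfr had a log2 difference of -0.59, lower at 24 h than at 6 h, and both arrays labelled estradiol were at the floor. Fewer cells of a type and less RNA per cell cannot be told apart in whole myometrium.

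Erbb2, the partner receptor without a ligand of its own, was above the floor on 3 of the 4 arrays. X03362_at read 155 with estradiol and 221 in the 24 h control, and 171 under the estradiol label and 61.2 under the control label at 6 h. The single low array was the one labelled control at 6 h, where Egfr was highest. Erbb2 was 1.43-fold lower with estradiol at 24 h and at least 1.58-fold higher on the array labelled estradiol at 6 h, both under the 2-fold rule. It was at least 2.05-fold higher in the control at 24 h than in the control at 6 h, and 1.11-fold lower with estradiol at 24 h than under the estradiol label at 6 h. Set beside the 6 h control, an alternative added once the data had been seen, the estradiol array at 24 h had a log2 difference of 0.51 or more, on the higher side. In the same way the array labelled estradiol at 6 h had -0.37 beside the 24 h control, so the direction of Erbb2 depended on the control at both times.

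Erbb3, a receptor with little kinase activity that binds neuregulins, varied least of the measured members, 1.36-fold over the 4 arrays. U29339_at read 143 with estradiol and 164 in the 24 h control, and 147 under the estradiol label and 193 under the control label at 6 h. It was 1.15-fold and 1.31-fold lower with the estradiol label at 24 h and 6 h, both under the rule. The second Erbb3 probe set, U52530_s_at, read between 64.9 and 91.8 and was at the floor on every array.

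Egfr and Erbb2 were the receptors past the 2-fold rule in any pair of arrays, and the 250 bases before their annotated starts are shown so that the sequence searched can be seen. Both are RefSeq sequences of the rat build GRCr8 on the plus strand, Egfr at chr14:95378376-95378625 and Erbb2 at chr10:83907351-83907600. Capitals mark the GC box GGGCGG, read on either strand (CCGCCC on the other), which binds Sp1-type factors.
Egfr: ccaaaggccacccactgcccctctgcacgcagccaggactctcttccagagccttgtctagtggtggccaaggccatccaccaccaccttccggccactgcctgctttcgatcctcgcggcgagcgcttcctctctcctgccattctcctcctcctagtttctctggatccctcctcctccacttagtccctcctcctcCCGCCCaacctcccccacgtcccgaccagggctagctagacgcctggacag
Erbb2: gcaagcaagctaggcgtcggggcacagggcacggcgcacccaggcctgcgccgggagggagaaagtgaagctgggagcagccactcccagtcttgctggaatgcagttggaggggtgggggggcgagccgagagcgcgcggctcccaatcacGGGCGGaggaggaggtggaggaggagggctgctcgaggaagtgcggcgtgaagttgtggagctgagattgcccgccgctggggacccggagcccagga
Each window held 1 GC box, beginning at position -51 for Egfr and -98 for Erbb2, counted from the start. Windows were found for 7 of the 9 genes, and 5 of these held a GC box (Areg, Btc, Egfr, Erbb2 and Tgfa), as did 30.5% of 33469 promoter windows of the same length. None of the 7 held the estrogen response element GGTCANNNTGACC, nor did most others, with 0.0239% of all windows holding it. Its half-site GGTCA, which the full element contains, was in 0 of the 7 and in 35.4% of all windows, both strands read. These matches describe letters in a short window and not binding.

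Hbegf, the heparin-binding ligand of Egfr and Erbb4, was above the floor on both arrays at 6 h and on neither at 24 h. L05489_at read 38.5 with estradiol and 75.7 in the 24 h control, and 191 under the estradiol label and 133 under the control label at 6 h. At 24 h no fold is given, since both arrays were at the floor. At 6 h Hbegf was 1.44-fold higher with the estradiol label, under the rule. The 24 h estradiol array was at least 2.13-fold lower than the array labelled estradiol at 6 h, a call that was under 2-fold after scaling to equal medians, at a log2 difference of -0.87. That pair also differs in scan day. The second Hbegf probe set, rc_AI059540_at, read between 16.1 and 30.9 and was at the floor throughout.

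Nrg1, the neuregulin that signals through Erbb3 and Erbb4, had 7 probe sets made from sequence records of the gene. U02315_at and U02315_g_at are named for the same record. The brightest, M92430_at, read 89.6 with estradiol and 110.4 in the 24 h control, and 178 under the estradiol label and 145 under the control label at 6 h. The value with estradiol at 24 h lay just above that array's floor of 89.5. Nrg1 was 1.23-fold lower with estradiol at 24 h and 1.23-fold higher on the array labelled estradiol at 6 h. The 2 arrays labelled estradiol differed by 1.99-fold, lower at 24 h, just under the rule. U02322_s_at read 24.0 with estradiol and 27.7 in the 24 h control, and 42.6 under the estradiol label and 152 under the control label at 6 h. It was above the floor on that last array alone, where it was at least 1.49-fold brighter than under the estradiol label. The other 5 Nrg1 probe sets read between 10.1 and 81.6 and were at the floor throughout, so they show no profile. M92430_at and U02322_s_at were highest on different arrays.

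The remaining ligands were at the floor on every array. Egf had signals between 49.2 and 87.5 on its brighter probe set and between 18.5 and 53.4 on the other. Tgfa, transforming growth factor alpha, had 59.3 with estradiol and 13.4 in the 24 h control, and 35.8 under the estradiol label and 22.8 under the control label at 6 h. Areg, amphiregulin, had 28.2 and 10.9 in the same order at 24 h, and 61.0 and 51.5 at 6 h. These readings bear no fold, because signals of this size are below the floor in each array, and they do not show that the ligands were absent.

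Counted over all 17 probe sets, 0 were called between estradiol and control at 24 h, where 16.7% of the 6157 probe sets above a floor were called. At 6 h 1 was called, Egfr on the lower side, where 12.3% of all were called and 5.38% on that side. Between the controls, 24 h against 6 h, 1 was called, Erbb2 on the higher side, where 17.9% of all were called and 8.43% on that side. Between the 2 arrays labelled estradiol 1 was called, Hbegf on the lower side, where 15.3% of all were called and 9.29% on that side. These shares are of probe sets above a floor on at least 1 array, a base on which the family has 6 of its 17. With so few measured, 0 or 1 call is not read as a result about the family. The estradiol comparisons and the comparisons between times share arrays, so these calls are not separate evidence. The calls over all probe sets split into 511 higher and 515 lower with estradiol at 24 h, and into 630 and 368 after scaling to equal medians, with a median difference of -0.03 in place of -0.17. Between the arrays labelled estradiol the split was 369 higher and 572 lower at 24 h, and 598 and 343 after that scaling. Log2 differences over all 6157 probe sets had an SD of 0.79 at 24 h, 0.70 at 6 h and 0.82 between the controls.

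**Figure D2:**
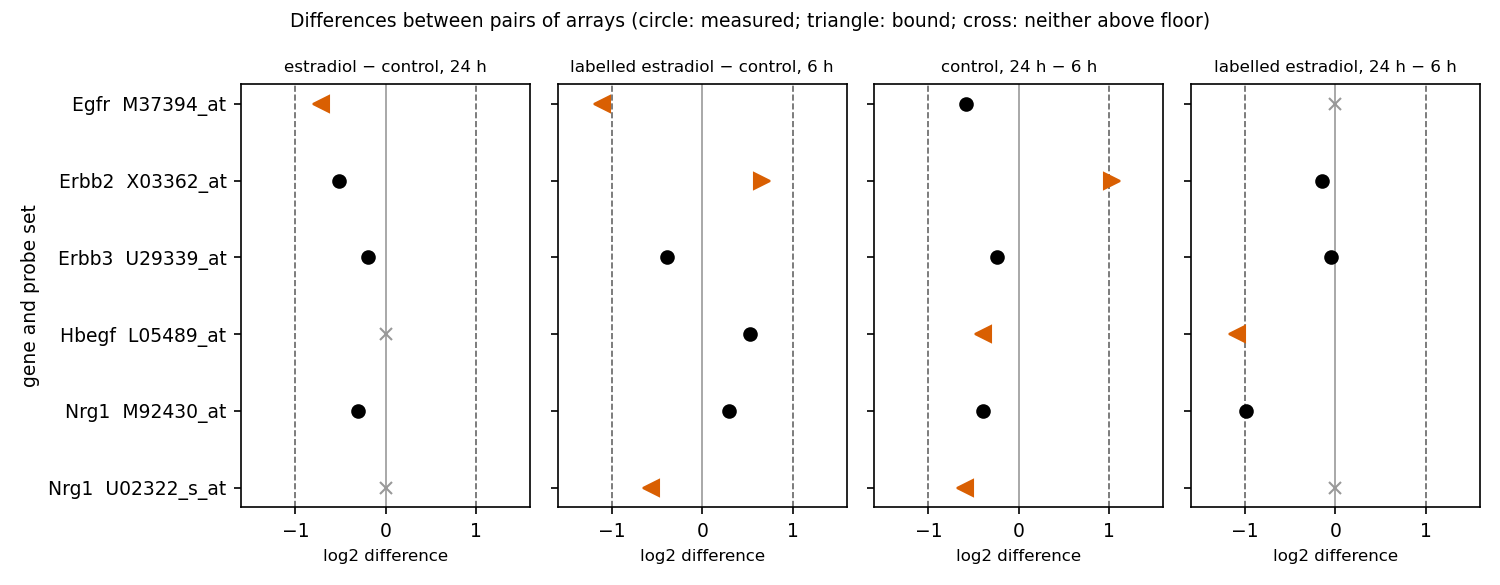
Log2 difference of the 6 measured probe sets in 4 pairs of arrays, with dashed lines at 2-fold. Circles are measured on both arrays, triangles are bounds pointing away from the array at the floor, and crosses mark pairs with neither array above its floor and no difference given. Egfr passes the line at 6 h at -1.10, Erbb2 between the controls at 1.03, and Hbegf between the arrays labelled estradiol at -1.09.

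The design allows 1 test, a limma model over the 4 arrays, with treatment and time as terms and 1 residual degree of freedom. Egfr had a log2 difference of -0.91 (SE 0.35), estradiol minus control, lower in both pairs, with an unadjusted p of 0.0609 and an adjusted p of 0.999 by limma with Benjamini-Hochberg adjustment. Both arrays labelled estradiol entered the fit at their floors for Egfr, so this difference and its SE depend on where the floor was set. The other 5 measured probe sets had differences between -0.37 and 0.18, and none passed. Across all 6157 probe sets tested limma called 0, or 0%, and 104 had an unadjusted p under 0.05. The fit averages the 2 times as labelled, while Igf1, Pgr, S100g and Hsd11b2 differed in opposite directions at the 2 times.

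Of 7 other EGF family genes listed, 2 were on the array. Nrg2, a neuregulin related to Nrg1, read 355 with estradiol and 109 in the 24 h control, and 96.6 under the estradiol label and 172 under the control label at 6 h. It was 3.25-fold higher with estradiol at 24 h, where 16.7% of 3619 measured genes were called, 8.68% higher and 8.04% lower, and at least 1.68-fold lower on the array labelled estradiol at 6 h. Its 2 brightest arrays were those on which Igf1 was high. The summed signal of the 8 epithelial markers on the array was high on the same 2 arrays, at 6333 with estradiol and 1596 in the 24 h control, and 1025 under the estradiol label and 4114 under the control label at 6 h. Of these epithelial markers 6 were called higher at 24 h and 4 lower at 6 h, among them the keratins Krt8 and Krt18. At 6 h 5.08% of all measured genes were called lower. Cd24 alone gave 2199 of the sum on the array labelled control at 6 h. Epcam was at the floor on both 6 h arrays, and Muc1 was lowest with estradiol at 24 h, at 194 against 283 in the control. The part of these cells in the Nrg2 difference was not tested. After the floor was raised to the 60th percentile, the Nrg2 difference at 24 h was under 2-fold, at 0.51 on the log2 scale. The only Nrg2 probe set, AB001576_s_at, counts as one of shared sequence, so Nrg2 had no value when such probe sets were left out. Erbb4, the fourth receptor, was at the floor on every array, with 18.1 as its lowest signal.

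Genes that cut or hold EGF ligands were 15 of 24 on the array, and all 15 were measured. At 24 h 3 were called higher and 4 lower, where 8.68% and 8.04% of all measured genes were. The list's median log2 difference was -0.50 beside -0.17 over all measured genes, a value set by the ratio of the floors. Mmp7, a matrix protease that can release heparin-binding EGF, read 872 with estradiol and 126 in the control, 6.92-fold higher, against 148 and 128 at 6 h. Sdc3, a heparan sulfate proteoglycan, was at least 3.20-fold higher, and Cd82, a tetraspanin, 2.32-fold higher with estradiol at 24 h. Gpc3, a glypican, was 3.77-fold lower, Cd9 2.98-fold, the hyaluronan receptor Cd44 2.14-fold and the syndecan Sdc4, named after its value was seen, 2.07-fold. Cd82 had a second probe set that read 310 with estradiol and 339 in the control, in the opposite direction. Cd44 was under 2-fold after scaling to equal medians or quantile normalization. Sdc4, which had a smaller fold than Cd44, was not recomputed under these settings.

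Cd9, a tetraspanin that associates with the membrane form of heparin-binding EGF, differed in opposite directions at the 2 times. X76489cds_g_at read 1085 with estradiol and 3233 in the 24 h control, and 3329.8 under the estradiol label and 1116 under the control label at 6 h, 2.98-fold higher. It was low on the 2 arrays where Igf1 was high, and its other probe set had the same order, 694 against 2226 at 24 h and 2529 against 1062 at 6 h. At 6 h Cd9 was the 1 gene of the 15 called, and the list's median was 0.14 beside -0.06 over all genes, of which 11.6% were called, 6.47% higher and 5.08% lower. The proteases that shed most of these ligands, Adam17 and Adam10, named here after their values were seen, were each under the rule at 24 h, 1.85-fold and 1.86-fold lower with estradiol. In both, the 24 h control was the single high array, at 256 and 385. The 24 h estradiol array read 138 and 208, above the 109 and 147 under the control label at 6 h.

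Adaptors and kinases that carry the signal were mostly under the rule. Of 52 listed, 30 were on the array and 25 measured. At 24 h 1 was called higher and 1 lower, where 8.68% and 8.04% of all measured genes were, with a list median of -0.14. At 6 h 0 were higher and 1 lower, where 6.47% and 5.08% of all were, with a median of -0.04. Akt1, a kinase downstream of PI3 kinase, read 2126 with estradiol and 518 in the 24 h control, 4.11-fold higher, while the arrays at 6 h read 1508 under the estradiol label and 1608 under the control label. Only the 24 h control was low, and a second Akt1 probe set read 964 and 531 at 24 h, and 513 and 669 at 6 h. Plcg1, a phospholipase that docks on Egfr, was 2.03-fold lower with estradiol at 24 h, at 636 against 1293. That difference was under 2-fold after scaling to equal medians. It was -0.39 on the log2 scale with the 6 h control, an alternative added once the data had been seen. Stat3, a transcription factor that Egfr can activate, was 3.71-fold lower on the array labelled estradiol at 6 h, at 103 against 381.

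Feedback inhibitors and genes of receptor turnover were 15 of 24 on the array, and 14 were measured. At 24 h 2 were called higher and 2 lower, where 8.68% and 8.04% of all measured genes were, with a list median of 0.10. At 6 h 0 were higher and 5 lower, where 6.47% and 5.08% of all were. The list median at 6 h was -0.45 beside -0.06 over all genes. Errfi1, which binds and inhibits Egfr, read 797 with estradiol and 727 in the 24 h control, and 793 under the estradiol label and 2589 under the control label at 6 h, 3.26-fold lower. On this probe set the array labelled control at 6 h was the single high one, while X07266cds_s_at of Errfi1 read 106 with estradiol and 302 in the 24 h control, its highest array, and 87.6 and 178 at 6 h. Socs3 was also high on the array labelled control at 6 h alone: it is a brake on cytokine signals and was at least 4.19-fold lower with the estradiol label. Ptpn1, a phosphatase that acts on Egfr, read 1556 under the estradiol label and 6221 under the control label at 6 h. Of its other 4 probe sets 3 were also lower with the estradiol label, and rc_AI112391_s_at was not, at 488 against 428. Its relative Ptpn2 was 2.05-fold lower. Dusp1, a MAP kinase phosphatase, was lower with the estradiol label at both times, at 113 against 431 at 24 h and 315 against 745 at 6 h. Its other probe sets were lower at both times too, but under 2-fold at 6 h, at 252 against 379 and 271 against 415. At 24 h Rasa2, a Ras inhibitor, was 2.24-fold lower, Dusp6, which acts on ERK kinases, 2.90-fold higher and Zfp36, which destabilises mRNAs, 7.91-fold higher.

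Zfp36, Dusp6 and Cd82 were lowest on the 24 h control array, and their second probe sets showed no such gap to the 24 h estradiol array. Zfp36 read 982 with estradiol and 124 in the 24 h control, and 1261 under the estradiol label and 2029.8 under the control label at 6 h, while its other probe set read 564, 559, 964 and 1024 in that order. Dusp6 read 372, 128, 589 and 455, and its other probe set 149, 314, 242 and 117. With the 6 h control in its place, the alternative added once the data had been seen, the differences of Zfp36, Dusp6 and Cd82 at 24 h were turned, at -1.05, -0.29 and -0.26 on the log2 scale. Whether the wash error of that array bears on these values was not tested.

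Immediate-early genes, which EGF receptors and many other signals switch on within minutes, were 20 of 25 on the array and 17 measured. At 24 h 1 was called, where 16.7% of all measured genes were: Junb, at least 5.19-fold higher with estradiol. The list median at 24 h was -0.14. At 6 h 0 were higher and 8 lower with the estradiol label, where 6.47% and 5.08% of all measured genes were, with a list median of -0.86 beside -0.06 over all genes. Junb read 523 with estradiol and 25.8 in the 24 h control, and 334 under the estradiol label and 1333 under the control label at 6 h. Its second probe set read 325 and 343 at 24 h, and 307 and 719.9 at 6 h, so the low control value was in 1 probe set. Under the estradiol label at 6 h Atf3 was 3.71-fold lower, the growth regulator Myc 2.94-fold, Klf4 2.98-fold, Fos 2.25-fold and Nr4a3 2.44-fold. Egr1 and Nr4a1, the other 2 called, are named after their values were seen. For Atf3, Myc and Fos the array labelled control at 6 h was the single high one, with 704, 723 and 1444 in that order, against a highest value of 222, 343 and 874 on the other 3 arrays. With the 24 h control in its place, the same added alternative, these 3 were under 2-fold, at -0.23, -0.48 and -0.44. Klf4 stayed past it, at -1.23, and its array apart was the low one labelled estradiol at 6 h, with 452 against 1005 to 1348 on the others. On the array labelled control at 6 h Egfr was highest too, and Erbb2 lowest.

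**Figure D3:**
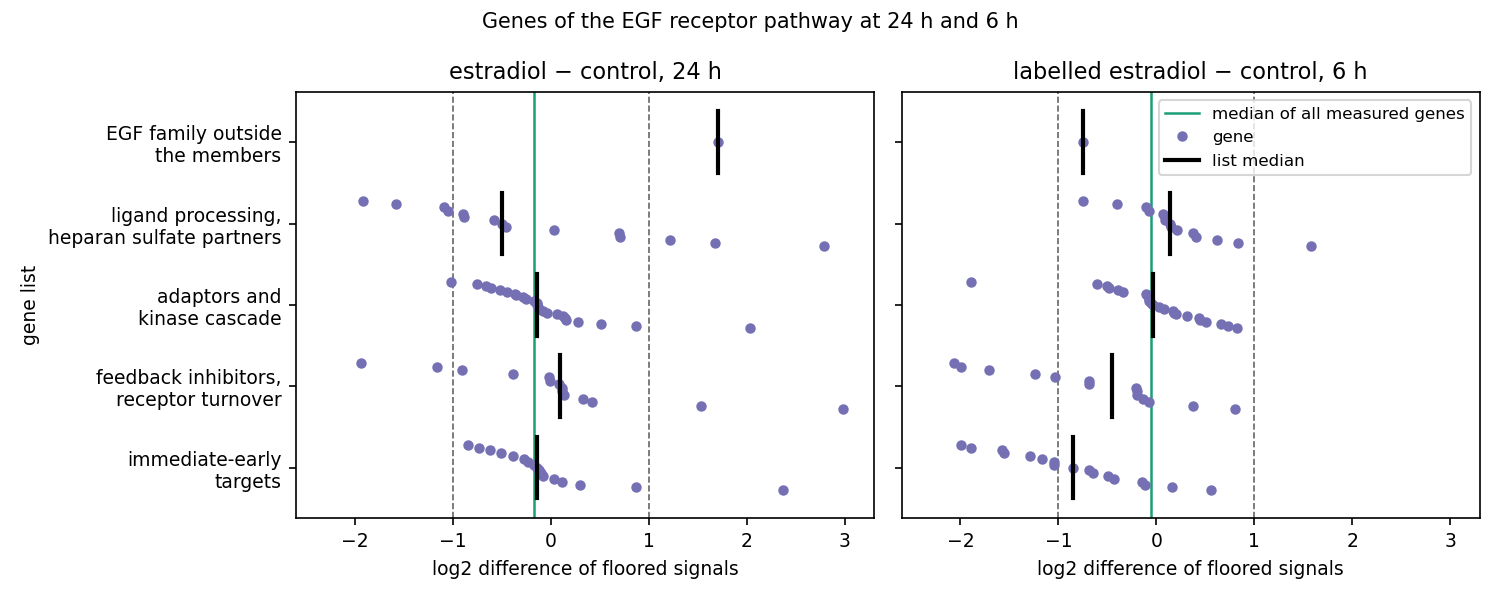
Log2 difference of the measured genes of 5 lists, estradiol minus control at 24 h (left) and the array labelled estradiol minus the array labelled control at 6 h (right), with 1 point per gene, black bars at list medians, dashed lines at 2-fold and a green line at the median of all measured genes. Feedback inhibitors and immediate-early genes lie to the left at 6 h, with medians of -0.45 and -0.86, and not at 24 h, with medians of 0.10 and -0.14; points at the ratio of the floors are genes at the floor on both arrays.

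Nerve sheath cells are known to use Nrg1 and Erbb3, and their markers were checked for that reason. Of 11 nerve and Schwann markers on the array 7 were measured, and S100b, Mbp, Nefm and Sox10 were at the floor on every array. Their summed signals were 4521 with estradiol and 7159.9 in the 24 h control, and 5949 under the estradiol label and 6908 under the control label at 6 h, mostly from Pmp22, which other tissues also express. Single nerve markers differed in their order: Ncam1 was highest on the array labelled estradiol at 6 h, as was Nrg1 M92430_at, and Mag, Gap43 and Nefh on the array labelled control at 6 h, as was U02322_s_at. Pmp22, Nefl and Prph were highest on the 24 h control array, where neither of these Nrg1 probe sets was highest. The part of nerve cells in the Nrg1 and Erbb3 values was not tested. Macrophage markers summed to 6742 and 8895 at 24 h and 7041 and 9681 at 6 h in the same order, granulocyte and mast cell markers to 611 and 809.8, and 516 and 682, endothelial markers to 790 and 1497, and 1203 and 1432, endometrial stroma markers to 46975 and 45410, and 35186 and 32766, and mesothelium and skeletal muscle markers to 8918 and 4159, and 3553 and 6505. Acta1 gave 7999 of the last list's sum with estradiol at 24 h and 5269 under the control label at 6 h. Wt1 of the same list ran the other way, at 308 with estradiol and 1059 in the 24 h control. At 6 h Wt1 read 869 under the estradiol label and 256 under the control label. Sums of other lists hid differing members too. At 24 h 0 stroma markers were called higher and 2 lower, where 8.68% and 8.04% of all measured genes were. These were Mme and Vcam1, at the floor with estradiol against 327 and 225 in the control. Of the macrophage markers 3 were called higher and 4 lower, such as Lyz2 at 3236 against 997 and RT1-Da at 1034 against 3554. The part of all these cell types in the values of Egfr, Erbb2 and Hbegf was not tested.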

How the data were processed

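The probe set intensities used were deposited by the authors in 1 table and were made with MAS5, per the submitters' processing notes, with version and settings not given in the sources used here. Biotin-labelled RNA of 1 pool per group was hybridised to RG_U34A arrays, per the file headers. The trimmed mean of each deposited column, without the outer 2% at each end, was 500. Signals were scaled to that mean over all 8799 probe sets, 59 Affymetrix controls were dropped, values under the 40th percentile of an array were raised to it, and log2 was taken. The platform annotation named 1 gene for 7018 probe sets, more than 1 for 308, and no gene for 1473. RefSeq names matched by gene identifier updated 0 symbols, and 24 probe sets kept the array's symbol. A gene was led by its probe set with the highest mean signal. Lists of pathway genes and markers, and up to 6 called genes per list and comparison, were named. Members and lists were chosen with earlier results of these data known. No member was both above the floor on all 4 arrays and at least 2-fold variable, so no genes of like pattern are named. limma 3.58.1 in R 4.3.3 gave the fit, with a threshold of 0.05. The rule and the fit were tested on simulated arrays. The alternatives were signals as deposited, a common median, quantile normalization, other floors, a pseudocount, 1.5-fold and 3-fold rules, shared-sequence probe sets left out, gene means, no filter on dim probe sets for limma, and the mean of both controls. Added after the data were seen was the control of the other time. The number of arrays limits the precision.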

Additional observations from a re-analysis of the deposited data

Results flagged for a closer look

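With 1 array per group, no array could be set against others of its group. Several genes had log2 differences of opposite sign at the 2 times, estradiol minus control as labelled, and the difference between times was not tested. Erbb2 had -0.52 at 24 h and at least 0.66 at 6 h. The estrogen targets ran the other way, with 2.96 and -3.48 for Igf1, 1.71 and -2.53 for Pgr, 1.46 and -3.41 for S100g and 2.92 and -3.06 for Hsd11b2, at 24 h and 6 h in that order. Cd9 had -1.58 at 24 h and 1.58 at 6 h. Junb had at least 2.37 at 24 h and -1.99 at 6 h on its leading probe set. Its second probe set did not change sign, at 325 against 343 at 24 h and 307 against 719.9 at 6 h.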

How the results depend on the processing

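No paired analysis was possible because each group is 1 array and the labels carry no replicate numbers. Limma called 0 probe sets under the main setting and the 6 others run, with 60 to 377 at an unadjusted p under 0.05. Of 200 recomputed log2 differences of members, 181 kept their side of the fold rule in force, 9 dropped under it and 10 came past it. The rule in force was 1.5-fold or 3-fold in those alternatives and 2-fold otherwise, so a call could change without its value. Signals as deposited gave the main values again, since their trimmed means were already 500. Of the 200, 8 changed sign, each under the rule in both settings, among them Erbb2 with the control of the other time, at 0.51 for 24 h and -0.37 for 6 h. At 24 h the count of member probe sets was 0, against 2 with a floor at the 20th percentile or a pseudocount of 50, and 1 with a 1.5-fold rule, the mean of both controls or the 6 h control. At 6 h it was 1, against 3 with the floor at the 20th percentile, 2 with a 1.5-fold rule, and 0 with the floor at the 60th percentile, a 3-fold rule, the mean of both controls or the 24 h control. Between the controls it was 1, against 2 with the lower floor or the pseudocount, 3 with a 1.5-fold rule, and 0 with the higher floor or a 3-fold rule. Between the arrays labelled estradiol it was 1, against 3 with the lower floor, 2 with a 1.5-fold rule, and 0 with equal medians, quantile normalization, the higher floor or a 3-fold rule. Over all probe sets, 1026 were called at 24 h, against 1873 with the lower floor, 544 with the higher one, 2305 with a 1.5-fold rule, 350 with a 3-fold rule and 653 with the mean of both controls. At 6 h 758 were called, against 1493, 424, 1977, 235 and 409 under the same settings in that order, and 505 without probe sets of shared sequence. Between the controls 1101 were called, against 1896, 582, 2340 and 410 under the floors and fold rules, and between the arrays labelled estradiol 941, against 1766, 521, 2398 and 271. Of 568 pathway gene values 44 changed sign, 30 of them under the rule in both settings. The other 14 follow. With the 6 h control, log2 differences at 24 h were -0.26 for Cd82, -0.29 for Dusp6, -1.70 for Errfi1, -1.35 for Junb, -1.90 for Ptpn1, -1.98 for Socs3 and -1.05 for Zfp36. With the 24 h control, those at 6 h were 1.54 for Akt1, 0.13 for Errfi1, 1.73 for Junb, 0.023 for Socs3 and 3.34 for Zfp36, which had 1.33 with the mean of both controls. Cd82 had -0.13 at 24 h without shared-sequence probe sets. Stricter floors and fold rules admit fewer probe sets by construction, and the cause of the other changes was not tested. Signals near the floor and single arrays limit what can be said of the members: a member at the floor may still be expressed, and no difference has a replicate check.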
